A study of Homo sapiens with 4 samples.

Results

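Expressed loci that span 200 kb or more were followed in LNCaP, an established human prostate cancer cell line from a lymph node metastasis, after transfection with a CRYM vector or an empty vector. A locus here is the stretch of genome that the transcript assembly treated as 1 unit, with its introns. The members were chosen by position, width and level: listed at the same position in all 4 libraries on chromosomes 1 to 22, at least 200 kb wide, with an accepted estimate in all 4 libraries, and at 1 FPKM or more in 2 libraries or more. FPKM counts fragments per kilobase of transcript, scaled to the number of mapped fragments. Of 1458 joined loci of that width on these chromosomes, 565 qualified, out of 10091 loci of any width that passed the same criteria. They were compared with the 2107 loci of 5 to 20 kb that passed the same filters. The choice used the level in all libraries, so the members' levels are descriptions, and the 893 wide loci that did not qualify are in none of the counts.

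The groups were LNCaP with the empty control for the pReceiver-M72 vector and LNCaP with a CRYM open reading frame clone in the same vector series, with 2 libraries each. All 4 were made from cells at passage 22 in RPMI medium with 10% FCS and antibiotics, given 2500 ng of plasmid with 12 µL of Lipofectamine 2000, and taken at 48 h. The transfection was transient and GFP was monitored, per the series' design text, so a library can mix transfected and untransfected cells; fewer cells of a kind and less RNA per cell cannot be told apart in such bulk samples. The labels speak of biological replicates without stating separate cultures, so the p-values reflect only how far these samples lie apart, which may be technical.

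The transfected gene, CRYM, codes for the thyroid hormone binding protein mu-crystallin. Its locus stood at 1.17 and 0.977 FPKM with empty vector and at 65.3 and 72.5 FPKM with the CRYM vector. Relative depth was 1, 1.15, 0.842 and 1.07 in empty vector 1, empty vector 2, CRYM 1 and CRYM 2, and absolute depth is unknown. Of 9 markers of LNCaP, 6 were matched to a tested locus at 71.5 to 1939 FPKM. The labelled cell type's markers were thus present in every library. In CRYM cells KLK3, KLK2, TMPRSS2 and HOXB13 were lower, by 1.14-fold to 4.35-fold, FOLH1 was 1.44-fold higher and KRT8 did not pass. Fragments implied by the deposited intervals had CRYM to empty vector ratios, at equal depth, of 1.08, 0.764, 0.942 and 1.12 in the genes called lower. Those of KLK3 and HOXB13 thus did not follow the FPKM. No basal or neuroendocrine marker was matched to a tested locus, and INSM1 was at 0 in 3 libraries and at 0.0138 in the CRYM 2 library. COL1A1, VWF and HLA-DRA, the tested fibroblast, endothelial and immune markers, had 1.56 to 5.78 FPKM and did not pass the test. The part of these markers in the members' changes was not tested.

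In genes of this width introns make up nearly all of the transcribed sequence. RNA polymerase II needs far longer to cross such a gene than a short one, and topoisomerases relieve the twist that builds up along the way. Very long genes are often adhesion molecules, signalling proteins or regulators with restricted expression, and several lie in common fragile sites, regions that break when replication is slowed.

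The members were 200196 to 2473538 bp wide, with a median of 303540 bp. The deposited tables name 8 of them, and 448 others were named by a match of order and width to annotated genes, which gave the file's own name for 158 of 158 named loci of this width on which it could be checked. The other 109 have no symbol here and are given by position in hg19. Of the 456 with a symbol, 435 are annotated as protein coding and 10 as long intergenic RNA. Exons covered a median of 2.58% of a member with a gene model (8673 bp), against 31.8% (3575 bp) in loci of 5 to 20 kb. The median of the members' mean FPKM was 7.13 and that of the shorter loci 17.9.

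The sequence before the start of the gene is shown for 2 of the largest rises and 2 of the largest falls, all with a single start in the RefSeq promoter table. Each is the 250 bases upstream of the start, 5′ to 3′ on the strand of the gene, in GRCh38.p14, with every CG dinucleotide in capitals. TMEFF2 (chr2:192194934-192195183, minus strand) and SGMS1 (chr10:50623957-50624206, minus strand) were higher in CRYM cells. RNLS (chr10:88583319-88583568, minus strand) and STK39 (chr2:168247596-168247845, minus strand) were lower.
TMEFF2: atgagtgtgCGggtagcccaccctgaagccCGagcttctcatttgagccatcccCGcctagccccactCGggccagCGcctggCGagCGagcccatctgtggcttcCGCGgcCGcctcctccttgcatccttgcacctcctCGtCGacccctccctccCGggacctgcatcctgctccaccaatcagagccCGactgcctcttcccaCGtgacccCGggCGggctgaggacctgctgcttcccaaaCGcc
SGMS1: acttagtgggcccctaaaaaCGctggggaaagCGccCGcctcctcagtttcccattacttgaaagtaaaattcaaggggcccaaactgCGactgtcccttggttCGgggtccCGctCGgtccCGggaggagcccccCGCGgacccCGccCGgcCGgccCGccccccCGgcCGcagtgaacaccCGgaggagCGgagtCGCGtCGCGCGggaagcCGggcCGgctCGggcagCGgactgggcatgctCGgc
RNLS: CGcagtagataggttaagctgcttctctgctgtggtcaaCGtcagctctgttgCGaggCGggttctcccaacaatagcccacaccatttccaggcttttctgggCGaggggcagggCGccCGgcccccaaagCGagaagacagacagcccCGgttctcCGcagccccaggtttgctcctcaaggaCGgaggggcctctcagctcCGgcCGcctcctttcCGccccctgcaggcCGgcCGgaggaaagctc
STK39: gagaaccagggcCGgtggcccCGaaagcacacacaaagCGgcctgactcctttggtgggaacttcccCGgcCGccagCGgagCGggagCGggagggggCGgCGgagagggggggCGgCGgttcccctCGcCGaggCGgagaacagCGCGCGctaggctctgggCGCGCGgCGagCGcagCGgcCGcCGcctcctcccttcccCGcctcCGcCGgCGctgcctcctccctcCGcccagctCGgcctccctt
These windows hold 18, 28, 16 and 32 CG dinucleotides, where the median over 35116 RefSeq promoters was 11 in the same window. The GC box letters GGGCGG were found on either strand in all 4 windows and in 42.6% of all promoters, and each match itself contains a CG. The letters CCAAT, on either strand, were found in the TMEFF2 window and in 32.0% of all promoters. TATAAA was found in none of the 4 and in 10.7% of all. A promoter entry was found for 373 of the 565 members, under the 80% needed for a comparison of the whole set, and none is given.

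Members were more often higher than lower in CRYM cells. Of 565, 134 passed as higher and 67 as lower and 364 did not pass, by limma on log2(FPKM + 1) with Benjamini-Hochberg adjustment over all tested loci at 0.05. That is 23.7% higher and 11.9% lower. Over all 10091 tested loci the shares were 15.7% higher and 17.7% lower, and over loci of 5 to 20 kb they were 14.2% higher and 23.4% lower. The share called in either direction was similar, at 35.6% of members, 37.6% of the shorter loci and 33.3% of all tested loci. The groups did not overlap at 76.5% of members, close to 72.2% of all tested loci and 75.9% of the shorter ones. The split between directions differed. Without overlap 49.2% of members were higher and 27.3% lower, against 37% and 35.3% over all and 33.4% and 42.5% of loci of 5 to 20 kb.

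The direction of the counts rests on the scale of the libraries. Rescaled so that all libraries have the same summed FPKM, the median tested locus moved from 0.011 to -0.52 on the log2 scale. Of the members 29 then passed as higher and 306 as lower. Of all 10091 tested loci 297 then passed as higher and 6256 as lower. The members' median stood 0.087 above that of all tested loci as deposited, 0.11 above it after that rescaling, 0.048 above it with quantile normalization and 0.0052 above it with no filter on level. With any 1 of the 4 libraries left out, no locus passed, and the smallest limma adjusted p was 0.0550 to 0.0712. The members' median was then 0.088 to 0.11, beside 0.0055 to 0.014 over all tested loci.

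The shift of the whole set was small beside the changes of single loci. The members' median log2 difference was 0.098, with quartiles of -0.15 and 0.33, and that of loci of 5 to 20 kb was -0.025, a gap of 0.12. Each of the 4 pairs of a CRYM and an empty vector library gave a gap of the same sign, at 0.17, 0.11, 0.15 and 0.11. The 4 pairs reuse the same 2 libraries of each group, so they are not independent. Between libraries of 1 group the same gap was 0.033 for the empty vector pair and -0.044 for the CRYM pair. As deposited and filtered, the gap between the groups was larger than that between libraries of a group. With quantile normalization it was 0.063, and with no filter on level 0.0094, which is smaller than the within-group gaps. The median was -0.012 for loci of 20 to 50 kb, -0.0085 for 50 to 100 kb and 0.055 for 100 to 200 kb, and 0.061 for the shortest, those under 5 kb. Within the members it did not grow further: 0.090 at 200 to 300 kb, 0.10 at 300 to 500 kb, 0.10 at 500 kb to 1 Mb and 0.049 in the 14 loci of 1 Mb or more. Width and change thus did not go together over the whole range.

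**Figure D1:**
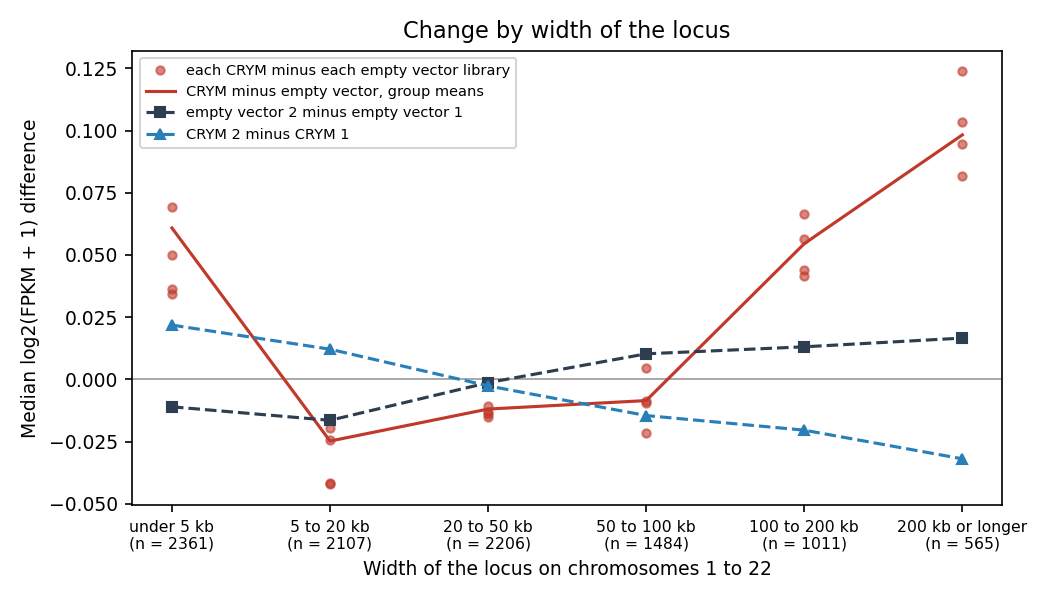
Median difference on the log2(FPKM + 1) scale by width class of tested loci on chromosomes 1 to 22. Red points are the 4 pairs of a CRYM and an empty vector library, the red line joins the medians of the difference of group means, and the dashed lines are library 2 minus library 1 within each group; at 200 kb or longer the red points lie at 0.082 to 0.12 and the within-group medians at 0.017 and -0.032.

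The level of a locus moved with the gap. Among loci with a mean FPKM under 3, the median log2 difference was 0.12 in the 150 members and 0.14 in the shorter loci, so the members were not the higher ones there. At 3 to 10 FPKM it was 0.18 in 196 members and 0.092 in the shorter loci, and 30.1% of members against 18.4% passed as higher. At 10 to 30 FPKM it was 0.00010 against -0.050, and at 30 FPKM or more -0.075 in 69 members against -0.13. In that highest class 24.6% of members passed as lower, against 37.3% of shorter loci. Within classes of level the gap was therefore 0.050 to 0.091 in the upper 3 and -0.027 in the lowest, smaller than the gap of 0.12 over all levels.

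**Figure D2:**
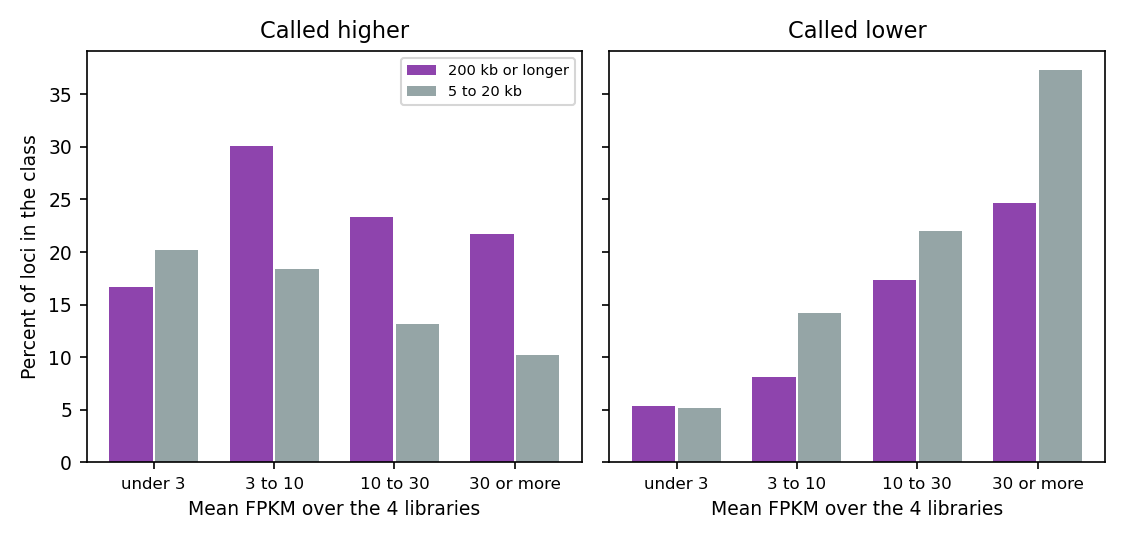
Percent of loci called higher (left) and lower (right) in CRYM cells by class of mean FPKM over the 4 libraries, in loci of 200 kb or longer and of 5 to 20 kb. Bars start at 0; from 3 FPKM upward the wide loci have the taller bar for higher and the shorter bar for lower, and under 3 FPKM they have 16.7% higher against 20.2%.

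The fragments that the deposited intervals imply gave the same order. At equal depth, the median log2 ratio of implied fragments between the groups was 0.17 in 555 members above 0 in every library, 0.080 in loci of 5 to 20 kb and 0.10 in all tested loci. Of the 134 members called higher 127 had more implied fragments in CRYM cells, and of the 67 called lower 61 had fewer. Called or not, the sign was that of the FPKM difference at 468 of the 555 members. It was so at 1565 of 2052 loci of 5 to 20 kb and 7441 of 9412 of all tested loci. Implied fragments are computed from the same FPKM and its interval, so they are no independent check. A member held a median of 717 to 890 implied fragments per library, which is a relative SD of 3.35% to 3.74% from the interval. The interval belongs to 1 library and does not cover the spread between libraries. Implied fragments are also not a count of reads. At TJP1 they were 330 and 3566 in the CRYM libraries, at 43.4 and 39.0 FPKM.

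Of the members called higher 71 changed by under 0.5 on the log2 scale and 17 by 1 or more, and of those called lower 37 and 7 did. The plot of change against width shows large changes at several widths, such as ANK3 at 707193 bp.

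**Figure D3:**
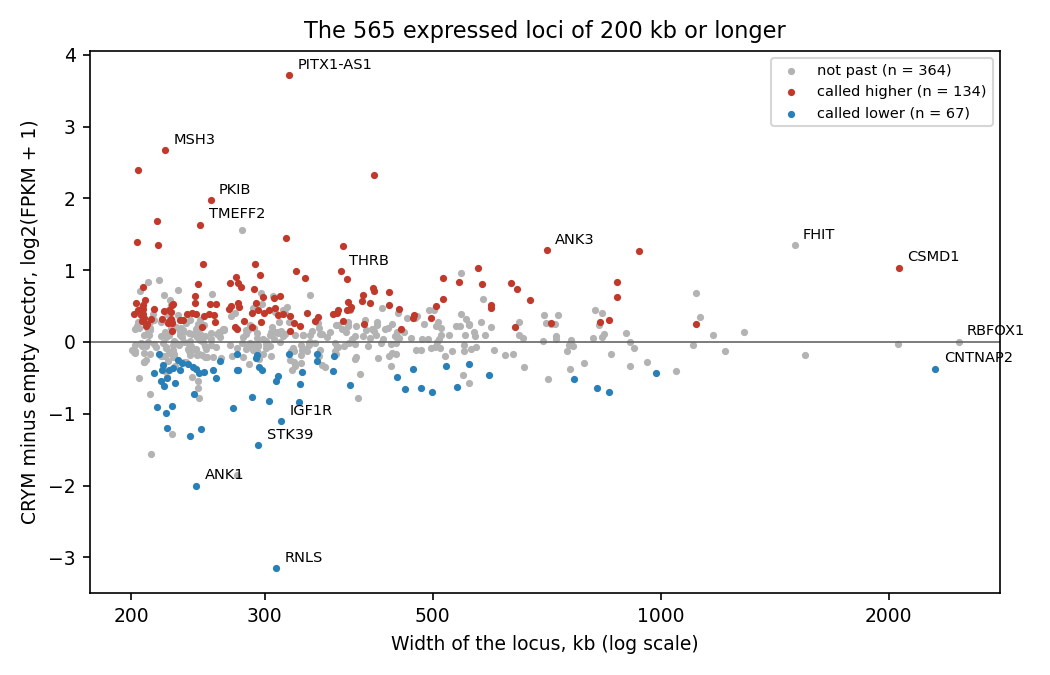
Difference between CRYM and empty vector on the log2(FPKM + 1) scale against width in kb (log scale) for each of the 565 members, 1 point per locus. Red points passed as higher (134), blue as lower (67) and grey did not pass (364); the highest labelled points, PITX1-AS1 and MSH3, were listed at 0 in both empty vector libraries.

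Of the 10 largest rises with a symbol, those at the highest levels were PKIB, TMEFF2, GRB10 and ANK3. PKIB, an inhibitor of protein kinase A, had 21.3 and 18.5 FPKM with empty vector and 81.2 and 80.2 with CRYM. Its group means of 19.9 ± 1.94 and 80.7 ± 0.697 (SD, n = 2) were 4.06-fold apart, a log2 difference of 1.97 (SE 0.0800, limma adjusted p = 0.00572). TMEFF2, a prostate-expressed membrane protein with follistatin-like and EGF-like domains, had 44.9 and 41.3 FPKM against 136 and 136, 3.15-fold higher (log2 1.63, SE 0.0524, limma adjusted p = 0.00487). Both CRYM libraries of these genes lay far above both empty vector libraries.

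GRB10, an adaptor that binds the insulin and IGF1 receptors, had 48.6 and 45.4 FPKM with empty vector and 124 and 126 with CRYM, 2.66-fold higher (limma adjusted p = 0.00487). IGF1R, the receptor for insulin-like growth factor 1 (hg19 chr15:99192200-99507759), went the other way, from 8.51 and 8.19 FPKM to 3.44 and 3.24, 2.50-fold lower with a log2 difference of -1.11 (SE 0.0525, limma adjusted p = 0.00629). The adaptor and the receptor thus went in opposite directions. Both were picked among members that passed without overlap between groups, so those 2 traits come with the choice.

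Ankyrins tie membrane proteins to the spectrin skeleton. ANK3, ankyrin-G of epithelial lateral membranes and axons (hg19 chr10:61786056-62493248), had 21.3 and 21.3 FPKM with empty vector and 54.9 and 51.6 with CRYM, 2.50-fold higher (log2 1.28, SE 0.0418, limma adjusted p = 0.00489). ANK1, the ankyrin first known from red cells, had 6.14 and 5.42 FPKM against 0.527 and 0.873. It qualified only through the empty vector libraries, so its direction was fixed by the filter and its values are a description without a test. The deposited intervals imply 700 fragments of ANK1 in each empty vector library, and 30 and 80 with CRYM.

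Several genes act on membrane lipids, grouped after their values were seen. SGMS1, which makes sphingomyelin from ceramide, had 5.20 and 5.05 FPKM against 16.5 and 15.0, 3.08-fold higher (limma adjusted p = 0.00609). DGKH, a diacylglycerol kinase, had 4.40 and 4.90 against 14.2 and 12.6, 2.88-fold higher (limma adjusted p = 0.00923). ATP8A1, a flippase that moves phosphatidylserine across membranes, had 0.654 and 0.714 against 2.67 and 2.50, and qualified only through the CRYM libraries, so its direction was fixed by the filter. CERS6, a ceramide synthase that the files name, had 10.6, 10.8, 11.7 and 11.5 FPKM and did not pass (limma adjusted p = 0.127). These genes belong to no list that was tested.

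PPM1H, a protein phosphatase, rose from 3.96 and 3.93 FPKM to 9.48 and 9.60. ZPLD1, a zona pellucida domain protein, had 0.307 and 0.420 against 2.44 and 2.46. Like IQCJ-SCHIP1, it qualified only through the CRYM libraries, so the direction of both was fixed by the filter. IQCJ-SCHIP1 is a gene annotated as a readthrough of neighbouring genes; it had 0.237 and 0.154 FPKM against 2.05 and 1.70, with 0 to 4 implied fragments per library.

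The widest difference downward was at RNLS, which encodes renalase, a flavoprotein oxidase (hg19 chr10:90033621-90344287). It had 10.4 and 9.08 FPKM with empty vector and 0.313 and 0.109 with CRYM, means of 9.75 ± 0.946 and 0.211 ± 0.144 (SD, n = 2). The ratio of means was 46.1, and the implied fragments were 218 and 210 against 11 and 4. It qualified only through the empty vector libraries, so its direction was fixed by the filter and no test is given. The level of this locus was thus below 1 FPKM in both CRYM libraries.

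STK39, a kinase that activates sodium and chloride cotransporters (hg19 chr2:168810530-169104651), had 80.8 and 79.4 FPKM against 30.4 and 27.7, 2.76-fold lower with a log2 difference of -1.44 (SE 0.0579, limma adjusted p = 0.00572). TAOK3, a stress-activated kinase of the same wider family, had 36.6 and 31.9 against 14.6 and 13.99, 2.40-fold lower (limma adjusted p = 0.00988). The implied fragments of TAOK3 differed between the empty vector libraries, at 2910 and 1884, and were 1627 and 1957 in the CRYM libraries, so the groups overlap on that measure.

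GBE1, the glycogen branching enzyme, was 1.96-fold lower, PDLIM5, a PDZ and LIM domain scaffold, 1.93-fold lower and PKP4, an armadillo protein of cell junctions, 1.90-fold lower. Their levels were 26.5 and 26.7 against 13.2 and 13.9, 26.3 and 25.9 against 14.1 and 13.0, and 38.1 and 37.9 against 20.2 and 19.8 FPKM. STON1-GTF2A1L, another readthrough, went from 5.06 and 5.36 to 1.70 and 1.67. LMNTD1, a lamin tail domain protein, had 1.87 and 1.68 against 0.140 and 0.0955, with 1 or 2 implied fragments in each library, and also qualified only through the empty vector libraries.

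**Figure D4:**
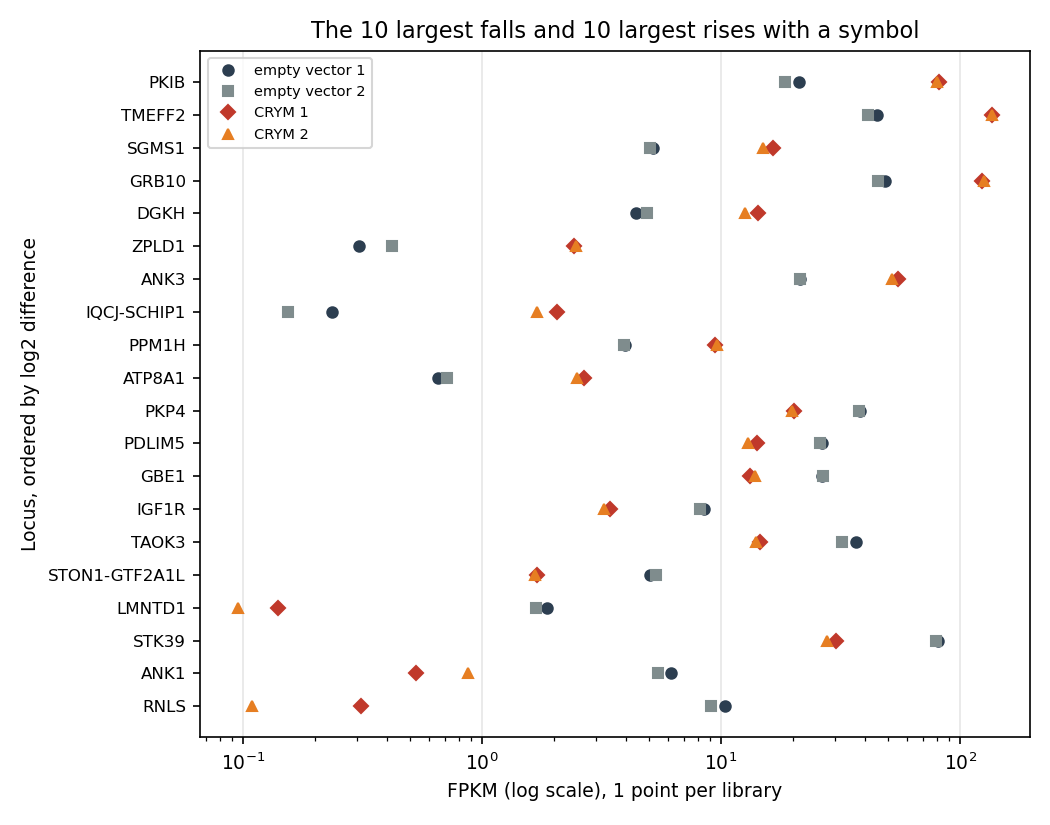
FPKM (log scale) in each of the 4 libraries for the 10 largest rises (top) and 10 largest falls (bottom) among members with a symbol that passed, did not overlap and had no library at 0. Each symbol is 1 library; by the rule for choosing them the groups are apart at every locus, and RNLS shows the widest gap, from 10.4 and 9.08 to 0.313 and 0.109. The points of 6 loci (ZPLD1, IQCJ-SCHIP1, ATP8A1, RNLS, ANK1 and LMNTD1) reach 1 FPKM in 1 group only.

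Of the 8 members that the files themselves name, 3 passed as higher and 1 as lower. Over all members the shares were 23.7% higher and 11.9% lower, and over all tested loci 15.7% and 17.7%. The noncoding loci RP11-506N2.1, RP11-10O22.1 and RP11-681L8.1 were 1.49-fold, 1.67-fold and 1.88-fold higher. The last 2 qualified only through the CRYM libraries, so their direction was fixed by the filter. GALNT18, which starts O-linked glycans on proteins, was 1.14-fold lower (limma adjusted p = 0.0481). NDUFAF2, an assembly factor of respiratory complex I, CAMK1D, a calcium-dependent kinase, AC011288.2 and CERS6 did not pass.

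Some members belong to the handling of hormone signals, and these were chosen after their values were seen. THRB, the beta receptor for thyroid hormone, had 6.58 and 6.66 FPKM with empty vector and 14.5 and 13.7 with CRYM, 2.13-fold higher (limma adjusted p = 0.00624). NCOA1, a coactivator of nuclear receptors, had 5.73 and 6.00 against 10.9 and 10.5, 1.83-fold higher (limma adjusted p = 0.00824), and NCOA2, its paralog, 8.49 and 8.74 against 12.2 and 11.9, 1.40-fold higher (limma adjusted p = 0.0128). NCOA3, the third coactivator of the family, spans less than 200 kb and did not pass (limma adjusted p = 0.0854). INPP4B, a phosphoinositide phosphatase known as a tumour suppressor in prostate, had 3.46 and 3.33 against 1.79 and 1.83, 1.87-fold lower (limma adjusted p = 0.0123).

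Other members named after their values were seen act in the cell cycle and in DNA replication or repair. CCNG2, a cyclin linked to growth arrest, rose 1.78-fold, from 66.0 and 72.9 to 124 and 124 FPKM. PRIM2, a subunit of the primase that starts DNA strands, fell 1.59-fold, from 9.004 and 8.96 to 5.72 and 5.56. DIAPH3, a formin used in cell division, fell 1.75-fold, from 8.98 and 8.89 to 4.97 and 5.25. RBBP8, which trims broken DNA ends, fell 1.55-fold from 13.0 and 13.1 to 8.55 and 8.25, although its implied fragments dropped to 1 in the CRYM 2 library. XRCC4, which joins broken ends, fell 1.41-fold, from 4.84 and 5.10 to 3.58 and 3.49. The limma adjusted p of these 5 genes lay between 0.00885 and 0.0221.

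Among surface and secreted proteins, APP, the amyloid precursor protein, rose 1.68-fold from 73.8 and 75.01 to 127 and 124 FPKM (limma adjusted p = 0.00496). MMP16, a membrane-bound metalloproteinase, rose 1.99-fold from 10.7 and 11.1 to 22.5 and 20.9. KCNMA1, a calcium-activated potassium channel, fell 1.46-fold from 19.2 and 19.5 to 14.2 and 12.2. EGLN3, a prolyl hydroxylase that marks HIF proteins, fell 1.60-fold from 16.3 and 16.6 to 11.1 and 9.42. These 4 were also chosen after their values were seen.

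The highest members did not move much. An unnamed locus at hg19 chr5:133484633-133706738 had 367 and 370 FPKM against 353 and 347 and did not pass. MGST1, a membrane glutathione transferase, had 366 and 345 against 299 and 294, 1.20-fold lower (limma adjusted p = 0.0285). Its log2 difference of -0.26 became -0.075 with quantile normalization (limma adjusted p = 0.135) and -0.86 after rescaling to the same summed FPKM, and with no filter the limma adjusted p was 0.0667. EIF3E, a subunit of a translation initiation factor, had 225 and 230 against 260 and 248.6 (limma adjusted p = 0.0528), a difference that turns to -0.44 on the log2 scale after rescaling to the same summed FPKM. Unnamed loci at chr21:34931848-35288284 and chr15:25068794-25301712 had 227 to 291 and 183 to 216 FPKM over the 4 libraries and did not pass. The chromosome 15 locus held 11 and 13 implied fragments with empty vector and 2953 and 14 with CRYM, so its level cannot be read.

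The widest member, RBFOX1, a splicing regulator over 2473538 bp, had 0.965, 1.11, 0.979 and 1.11 FPKM in empty vector 1, empty vector 2, CRYM 1 and CRYM 2, with no difference beyond the spread. CNTNAP2, a neurexin-like adhesion protein over 2304638 bp, had 3.22 and 3.54 against 2.37 and 2.39, 1.42-fold lower (limma adjusted p = 0.0354). CSMD1, a membrane protein with complement-control domains over 2059620 bp, went the other way, from 3.63 and 3.76 to 8.96 and 8.27, 2.33-fold higher (limma adjusted p = 0.00780). MACROD2, a hydrolase of ADP-ribose marks, and DAB1, an adaptor of reelin signalling, did not pass. The widest loci thus showed a rise, a fall and no call at similar width.

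Of 24 common fragile site genes on the list 7 were members, of which WWOX, an oxidoreductase and tumour suppressor, rose from 6.71 and 6.55 to 8.20 and 7.88 FPKM and CNTNAP2 fell, while 5 did not pass. That is 2 of 7, beside 33.3% of all tested loci and 35.6% of all members. The call of WWOX was lost with quantile normalization (limma adjusted p = 0.0822). FHIT, a hydrolase at the most fragile site, had 3.09 and 4.10 FPKM against 8.21 and 13.7, but the CRYM libraries were far apart and it did not pass (limma adjusted p = 0.0554). Its implied fragments, 88 and 134 against 54 and 81, did not follow the FPKM. IMMP2L, a mitochondrial protease subunit, had 29.96 and 29.2 against 33.4 and 31.3. The members' median on this list was 0.12, beside 0.098 over all members and 0.011 over all tested loci. After rescaling to the same summed FPKM none rose and 4 fell. With that rescaling 306 of 565 members and 6256 of 10091 tested loci fell.

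The cell adhesion and polarity list had 9 members, of which 3 rose, none fell and 6 did not pass, with a median of 0.12 beside 0.098 over all members and 0.011 over all tested loci. Called as higher were 23.7% of all members and 15.7% of all tested loci. TJP1, the tight junction protein ZO-1, had 23.1 and 22.7 FPKM against 43.4 and 39.0, 1.80-fold higher (limma adjusted p = 0.0114), with an implied fragment number that drops to 330 in the CRYM 1 library against 2533 to 3566 in the others. CTNNA1, alpha-catenin, had 86.7 and 87.5 against 97.9 and 95.2, and MACF1, a linker of actin and microtubules, 7.84 and 7.97 against 9.78 and 9.35. PTPRM, a receptor phosphatase that binds its own kind, had 12.2, 11.6, 12.1 and 13.9 and did not pass. CDH1, E-cadherin, spans less than 200 kb and was lower, at 132 and 134 FPKM against 117 and 116 (limma adjusted p = 0.0176). Its implied fragments did not follow, with a CRYM to empty vector ratio of 1.12 at equal depth. After rescaling to the same summed FPKM, 1 of the 9 rose and 5 fell, beside 306 of 565 members and 6256 of 10091 tested loci that fell.

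Of 10 members on the list of chromatin and transcription factors, NCOA1, NCOA2, TCF12 and NFIA rose, none fell and 6 did not pass, beside 23.7% of all members and 15.7% of all tested loci called higher, with a median of 0.27 beside 0.098 and 0.011. NFIA, a transcription factor of the nuclear factor I family, had 9.63 and 9.41 FPKM against 14.5 and 13.5, 1.47-fold higher (limma adjusted p = 0.0148). TCF12, an E protein, had 10.9 and 11.5 against 14.01 and 13.9 (limma adjusted p = 0.0267). TCF7L2, an effector of Wnt signalling, had 3.72 and 5.99 against 9.56 and 9.25 and did not pass, and its empty vector libraries lay apart. SMYD3, a lysine methyltransferase, had 41.4 and 28.1 against 33.2 and 20.6, a larger gap within groups than between them. EHMT1, a histone methyltransferase, had 17.4 and 21.7 against 16.4 and 19.8. After rescaling to the same summed FPKM none of the 10 rose and 1 fell, beside 306 of 565 members and 6256 of 10091 tested loci that fell.

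On the list of kinases, phosphodiesterases and calcium channels, AKAP13, an anchor of protein kinase A, rose from 3.77 and 4.01 to 5.48 and 5.34 FPKM. STK39 and IGF1R fell and 5 of 8 members did not pass. Called in either direction were 35.6% of all members and 33.3% of all tested loci. ITPR1, a calcium channel of the endoplasmic reticulum, had 2.85 and 2.90 against 2.61 and 2.54. PRKCA and PRKCE, protein kinases C, had 1.24 and 1.32 against 1.76 and 1.75, and 0.967 and 1.04 against 1.35 and 1.32 (limma adjusted p = 0.0543 and 0.0944). The median was 0.051 beside 0.098 over all members and 0.011 over all tested loci, and it turns to -0.093 with quantile normalization. After rescaling to the same summed FPKM none rose and 4 fell, beside 306 of 565 members and 6256 of 10091 tested loci that fell.

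No member is on the list of transcription elongation factors and topoisomerases, which are genes of ordinary width. Of 20 tested, 6 rose, 3 fell and 11 did not pass, beside 15.7% higher and 17.7% lower over all tested loci, with a median of 0.046 beside 0.011. After rescaling to the same summed FPKM none rose and 19 fell, beside 297 of 10091 tested loci that rose and 6256 that fell. TOP1, the topoisomerase that relieves twist ahead of the polymerase, had 47.7 and 49.2 FPKM against 61.5 and 59.6 (limma adjusted p = 0.0169). TOP2A, the topoisomerase of dividing cells, had 34.0 and 34.1 against 24.2 and 23.4 (limma adjusted p = 0.00815). LEO1, a subunit of the PAF complex that travels with the polymerase, had 69.7 and 67.9 against 29.999 and 28.9 (limma adjusted p = 0.00433). At equal depth the CRYM to empty vector ratio of implied fragments was 1.16 for TOP1, 1.03 for TOP2A and 0.893 for LEO1. The fragments of TOP2A thus did not follow its FPKM. The part of these genes in the members' shift was not tested.

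Loci listed at 0 need separate reading. In 10 members at least 1 library was at 0, and in 4 of them both empty vector libraries were: NAV1, a neuron navigator, MSH3, a mismatch repair protein, PITX1-AS1, an antisense RNA, and an unnamed locus at hg19 chr3:9022275-9440263. MSH3 was listed at 0 and 0 with empty vector and 5.66 and 5.08 FPKM with CRYM, and PITX1-AS1 at 0 and 0 against 9.81 and 14.9. In each library where one of the 10 was at 0, except for NAV1, a locus that overlaps its edge was at 1 FPKM or more in that library. The same held in the libraries where these loci were not at 0, so it does not set the libraries at 0 apart. At MSH3 the overlapping locus had 51.9 and 51.3 FPKM with empty vector and 30.3 and 28.4 with CRYM. NSMCE2, a subunit of a chromosome maintenance complex, had 10.95, 10.7 and 9.67 FPKM and was listed at 0 in the CRYM 2 library alone. No fold is given for these loci, and whether reads were assigned to the overlapping locus was not tested. Of the 10 members, 6 overlap the edge of another tested locus, and of the 555 other members 53 do.

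Of all members, 30 reached 1 FPKM only in both libraries of 1 group, 19 of them with CRYM. They had to differ by the filter, so their direction supports nothing. In the 509 members at 1 FPKM or more in every library, 118 passed as higher and 61 as lower and the median was 0.094. Without that limit the shares were 23.7% and 11.9% of all members and 15.7% and 17.7% of all tested loci.

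Within-group spread was large at some members. The empty vector libraries differed by over 1.5-fold at 37 members and the CRYM libraries at 32. An unnamed locus at hg19 chr5:68790040-69006341 had 12.6 and 19.8 FPKM with empty vector and 55.2 and 51.6 with CRYM, the largest rise among members without a symbol (limma adjusted p = 0.0278). Of the other unnamed rises, chr1:164524821-164854300 went from 2.02 and 1.90 to 4.95 and 4.75, chr8:99413631-99955055 from 14.6 and 15.0 to 27.7 and 26.6 and chr10:118643742-118886097 from 24.3 and 24.7 to 39.6 and 38.03. After rescaling to the same summed FPKM the log2 difference of the last went from 0.64 to 0.056 (limma adjusted p = 0.440). The locus chr6:24797549-25042398 rose from 3.06 and 3.95 to 6.60 and 7.12. Its intervals are wide beside its FPKM and imply at most 1 fragment per library. Its log2 difference went from 0.81 to 0.31 after that rescaling (limma adjusted p = 0.183).

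The largest unnamed fall was at chr15:64457716-64679886, with 70.0 and 69.2 FPKM with empty vector and 31.4 and 37.7 with CRYM (limma adjusted p = 0.0168). The locus chr1:90098631-90402170 went from 46.7 and 47.9 to 26.6 and 25.9, and chr12:4671370-4960277 from 154 and 193 to 102 and 99.8. The implied fragments of the chromosome 1 locus, 1928 and 1979 against 1889 and 2027, did not follow its FPKM. At equal depth their CRYM to empty vector ratio was 1.13. Falls at chr9:97861336-98079991 and chr13:76123619-76434004 were 1.58-fold and 1.47-fold. Of all members, 89 hold another tested locus within their span. In the 476 that do not, 121 passed as higher and 53 as lower, beside 23.7% and 11.9% of all members and 15.7% and 17.7% of all tested loci.

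At the edge of the width criterion, members just inside were an unnamed locus at chr11:14464986-14665181, with 202 and 209.9 against 192 and 189 FPKM, and SLX4IP, a partner of a DNA repair nuclease scaffold, with 2.94 and 2.79 against 4.23 and 3.88 FPKM. Just outside were LRCH1 at 199873 bp, KHDRBS3 at 199266 bp and NEDD9 at 199051 bp. LRCH1 had 1.73 and 1.92 against 1.72 and 1.72, KHDRBS3 1.74 and 2.42 against 11.2 and 4.55, and NEDD9 2.47 and 2.52 against 2.83 and 2.81.

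Counts by chromosome were as follows, with no test of a difference between chromosomes. Of all members 23.7% were called higher and 11.9% lower, and of all tested loci 15.7% and 17.7%. On chromosome 5, 12 of 34 members passed as higher and 2 as lower, on chromosome 4 13 of 37 and 3, and on chromosome 15 10 of 34 and 2. On chromosome 9, 1 of 23 passed as higher and 6 as lower, with a median of -0.10, and on chromosome 12 4 of 28 and 7. The other chromosomes had medians between -0.073 and 0.26.

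A readout outside the rule was the number of short assembled loci, under 1 kb and listed in 1 library only, that lie within the members. With empty vector they numbered 6.95 and 7.56 per Mb, with CRYM 8.90 and 9.93. At equal depth these became 6.95 and 6.57 against 10.6 and 9.27, a ratio of group means of 1.47. Both CRYM libraries were above both empty vector libraries. The same ratio was 1.47 within loci of 5 to 20 kb, at 57.0, 62.2, 73.6 and 81.3 per Mb before the depth was taken into account, so the rise was as large within short loci. Within loci of 20 to 200 kb the ratio was 1.47 as well. Before the depth was taken into account, 82 of the 565 members held more such loci in both CRYM libraries than in either empty vector library. Fewer were held by 37, and 212 held none in any library. This tally by locus was not made for other widths. As the ratio was also 1.47 within loci of 5 to 20 kb and of 20 to 200 kb, the readout shows nothing particular to the members.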

How the data were processed

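FPKM was measured by RNA sequencing of polyadenylated RNA in 4 libraries, from a stranded kit, as 50 bp single reads, per the labels' protocols. TopHat2 2.1.1, Bowtie2 2.2.9, Cufflinks 2.2.1, Cuffdiff, hg19 and GRCh37 are named, without roles, per the submitters' processing notes. Use of the strand in quantification is not stated in what was used here. The deposited FPKM values carry an interval and a status per locus, per the file headers. The 4 tables were joined by identical position, which left 52318 loci. Positions are counted from 1.

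Loci without a name in the files were given the symbol of the single GENCODE 29 gene that lies between the same named neighbours and whose length is within 1% of the locus width; no coordinate was converted. The rule for named genes spoke of symbols in the files. As only 8 members have one, it was also applied to matched symbols. It takes the 10 largest rises and falls with a symbol and 5 without, among members past the threshold, without overlap and with no library at 0, the 5 highest, the 5 widest, the 3 on each side of the width limit and up to 4 members per list. One locus that the rule takes is not reported here. The members and lists were chosen with earlier results of these data known. Promoter sequences are from RefSeq (GRCh38.p14).

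Differences were tested in limma 3.58.1 under R 4.3.3, using log2(FPKM + 1) in 2 groups, with a variance trend, two-sided, Benjamini-Hochberg over 10091 loci at 0.05, tested on simulated data. A log2 difference is on that scale, which understates the change of low loci, and a fold is a ratio of mean FPKM. Relative depth came from loci of 60, 61 and 62 bp, where 100% of values were whole multiples of what 1 read is worth (within 0.02). Implied fragments assume that a deposited interval is 2 SD on each side. They restate the interval of 1 library, are not a count of reads and do not cover the spread between libraries. Alternatives changed the pseudocount, filter, scaling, variance model, block, width limit and libraries. Python 3.11.15, numpy 2.4.6 and pandas 2.3.3 were used.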

Additional observations from a re-analysis of the deposited data

How the results depend on the processing

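With no filter on level, 1871 loci passed, 64 members as higher and 41 as lower, the members' median was 0.016 and its gap to loci of 5 to 20 kb 0.0094; with an FPKM of at least 5 the gap was 0.16. Rescaled to the same summed FPKM, 6553 loci passed, 29 members as higher and 306 as lower, the median was -0.41 and the gap 0.18. With quantile normalization the median was 0.045 and the gap 0.063. Widths of at least 150 kb gave 215 higher and 110 lower, and of at least 300 kb 63 and 28, on 893 and 286 loci. The 8 members named in the files gave 3 and 1, a median of 0.18 and a gap of 0.17, with the direction of 2 of the 3 fixed by the filter. Within classes of mean FPKM, added after the data were seen, the gap was -0.027 under 3, 0.091 at 3 to 10, 0.050 at 10 to 30 and 0.059 at 30 or more. The same summed FPKM turned the direction of SLX4IP (-0.080), WWOX (-0.29), CTNNA1 (-0.45), MACF1 (-0.30), AKAP13 (-0.11), TCF12 (-0.27) and NFIA (-0.046), and gave -0.46 for IMMP2L, -0.44 for EIF3E and PTPRM, and -0.49 and -0.43 for the unnamed high loci of chromosomes 21 and 15. Of the 41 named members called, 11 lost the call with no filter (CNTNAP2, SLX4IP, WWOX, CTNNA1, MACF1, AKAP13, TCF12, MGST1 and the unnamed loci of chromosomes 5 and 6 that rose and of chromosome 12), 5 with quantile normalization (SLX4IP, WWOX, MACF1, MGST1 and that of chromosome 12), 1 with no variance trend (CTNNA1) and 2 in rising direction with the same summed FPKM (unnamed, on chromosomes 6 and 10). The cause was not tested.

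The replicate numbers were not stated to pair the samples, and the deviations of libraries with the same number had a correlation of 0.036 across tested loci. With the replicate number as a block, 0 loci passed limma's adjusted threshold (smallest adjusted p = 0.0569). At p under 0.05 without adjustment 152 members stood higher and 81 lower, beside 3820 of all 10091 tested loci in either direction. Leaving out each library in turn, the members' median was 0.088 to 0.11 and the gap 0.11 to 0.15. The lone library of a group is then assumed to vary like the other group. All 201 called members kept their sign in these 5 fits, which is no sign of stability. The block leaves every difference as it was. Leaving out a library cannot turn the sign of a locus whose groups do not overlap. With the pseudocount of 0.1, the median-ratio scaling, no variance trend and members that hold no other tested locus, the counts stayed within 1.5 times and both medians within 1 SD between libraries. Absolute depth is unknown, so members with few implied fragments cannot be read.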
